A study of Oryza sativa with 4 samples.

Results

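The 9 cellulose synthase catalytic subunit genes of rice (Oryza sativa), CESA1 to CESA9, were followed across 4 RNA-seq libraries of seedling shoots. They were chosen by locus identifier, with no measured value in the rule, and make up 9 of the 55985 genes listed. They are CESA1 (LOC_Os05g08370), CESA2 (LOC_Os03g59340), CESA3 (LOC_Os07g24190), CESA5 (LOC_Os03g62090), CESA6 (LOC_Os07g14850) and CESA8 (LOC_Os07g10770), grouped here as 6 primary wall genes, and CESA4 (LOC_Os01g54620), CESA7 (LOC_Os10g32980) and CESA9 (LOC_Os09g25490), grouped as 3 secondary wall genes. All 9 were above 0 in each library and passed the filter on low values.

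The libraries came from seedlings 15 days old of the indica cultivar 93-11 and the japonica cultivar Nipponbare, with no mutation or transgene in the labels. Chilled seedlings had been moved for 33 h to 4 °C, out of a greenhouse kept at 28 °C in daytime and 25 °C at night, and untreated seedlings had not. Everything above ground was pooled, and each of the 4 groups (93-11 chilled, 93-11 untreated, Nipponbare chilled and Nipponbare untreated) is 1 such pool sequenced once after oligo(dT) selection, so no group has a replicate. The pools hold all shoot tissues together, and fewer cells of a type and less RNA per cell cannot be told apart in them.

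Plant cellulose is spun at the plasma membrane by rosette-shaped complexes of CESA proteins, each of which draws glucose from UDP-glucose and extends a glucan chain. One kind of complex works while a cell expands and lays down the thin primary wall. A second kind, built from other CESA proteins, works later in fibres and xylem vessels and lays down the thick secondary wall; in rice, mutants in CESA4, CESA7 or CESA9 have brittle culms. CESA1, CESA3 and CESA8 are the subunits most often found in growing vegetative tissue of rice.

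Levels are given in RPKM, a read count divided by the length of the gene model and the size of the library, after a scaling between libraries by trimmed mean of M-values (TMM), so that genes can be compared per length. Library totals worked out from the values ran between 12671333 and 16682882 reads, and a CESA gene was covered by 475 to 14723 reads in a library. All 95% intervals given for a single library or pair of libraries cover counting error only. In the limma fit across all libraries the 2 cultivars stand in for replicates of the treatment, and the 2 conditions for replicates of the cultivar. Its adjusted p-values therefore measure how far those pairs of pools disagree, with most of the weight on a prior shared among genes of similar level. Over the 19466 genes tested, chilling calls numbered 4599 higher and 4464 lower, around a median change of -0.055 (log2). The leaf markers CAB1R, CAB2R, RBCS and RCA, which encode antenna and carbon-fixation proteins, summed to 6741 and 9140 RPKM in the chilled pools of 93-11 and Nipponbare, against 40700 and 29990 RPKM in the untreated pools. The root markers LSI1 and HKT2;1 summed to 6.34 and 1.58 RPKM in the chilled pools, against 8.22 and 5.99 RPKM untreated, and the meristem markers OSH1 and OSH15 stayed under 0.1 RPKM in each library. RBCS and RCA had 3783 and 2836 RPKM in 93-11 chilled and 5586 and 3439 RPKM in Nipponbare chilled. Neither passed the limma test for chilling (adjusted p = 0.143 and 0.0570). CAB1R and CAB2R passed as lower, with 57.3 and 64.6 RPKM in 93-11 chilled and 14.8 and 100 RPKM in Nipponbare chilled. RBCS and RCA transcripts were thus abundant in all 4 pools, as the shoot label says. Every leaf marker was lower in the chilled pool of each cultivar. The part of tissue make-up in the CESA values was not tested.

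Chilled pools held less CESA transcript than untreated ones. Summed over the 9 genes, the level was 319.6 RPKM in 93-11 chilled and 380.2 RPKM in Nipponbare chilled, against 640.0 RPKM in 93-11 untreated and 805.5 RPKM in Nipponbare untreated. The chilled sum was thus 0.499 of the untreated one in 93-11 and 0.472 in Nipponbare. In reads, the family took 0.118 percent of the 93-11 chilled library and 0.138 percent of the Nipponbare chilled library, against 0.273 percent of 93-11 untreated and 0.369 percent of Nipponbare untreated. Neither wall type kept its level. Primary wall genes summed in the chilled libraries to 0.5195 of their untreated level in 93-11 and 0.484 in Nipponbare, and secondary wall genes to 0.400 and 0.436. Under the 4 other scalings these sums stayed lower in the chilled libraries, with the family at 0.429 to 0.755 of its untreated level in 93-11 and 0.373 to 0.595 in Nipponbare, the top of both ranges coming from scaling to the reference genes.

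**Figure D1:**
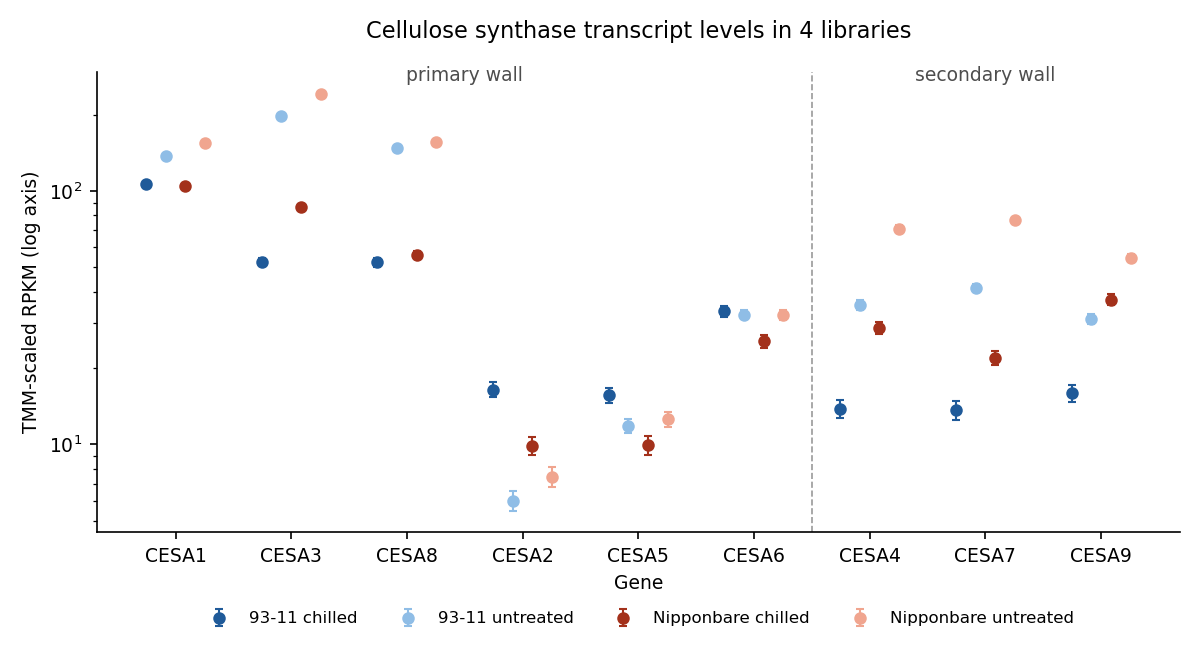
TMM-scaled RPKM (log axis) of the 9 CESA genes in each of the 4 libraries; each point is 1 library and bars are 95% counting intervals. Both chilled points of CESA3, CESA8, CESA4 and CESA7 lie below both untreated points, both chilled points of CESA2 lie above them, and those of CESA5, CESA6 and CESA9 overlap them.

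In the limma fit, 5 of the 9 genes fell with chilling and 0 rose, where 22.9 percent of all genes tested fell and 23.6 percent rose. The 5 were CESA3 and CESA8 among the 6 primary wall genes and all 3 secondary wall genes. The median change was -1.29 (log2) over the secondary wall genes and -0.30 over the primary wall genes, the last of which turned to 0.15 with scaling to the reference genes. Without adjustment, 6 of the 9 had p under 0.05, beside 55.1 percent of all genes; the one added was CESA2, which was higher. With any 1 library left out, which drops the cultivar term, 0 to 2 of the 9 passed.

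CESA3, a broadly expressed primary wall subunit, was lower in the chilled pool of each cultivar. Its level was 52.4 RPKM in 93-11 chilled and 86.3 RPKM in Nipponbare chilled, against 197 RPKM in 93-11 untreated and 240.5 RPKM in Nipponbare untreated. The chilled and untreated libraries did not overlap, and the fitted change was -1.68 ± 0.24 (SE, log2; limma adjusted p = 0.00528). Within each cultivar the chilled library held 0.266 of the untreated level in 93-11 (95% interval 0.255 to 0.277) and 0.359 in Nipponbare (0.347 to 0.371).

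CESA8, the third of these vegetative primary wall subunits, was likewise lower in both chilled pools. It stood at 52.3 RPKM in 93-11 chilled and 55.9 RPKM in Nipponbare chilled, against 147 RPKM in 93-11 untreated and 156 RPKM in Nipponbare untreated. The conditions did not overlap, and the fitted change was -1.47 ± 0.21 (limma adjusted p = 0.00566). The chilled level was 0.355 of the untreated one in 93-11 (0.339 to 0.371) and 0.359 in Nipponbare (0.343 to 0.374). The log2 responses differed between the cultivars by -0.015, with a counting interval of -0.10 to 0.073; the interval no longer held 0 with values as deposited (0.11, 0.018 to 0.19) or with scaling to the reference genes (0.25, 0.16 to 0.34).

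CESA1 was the primary wall subunit whose transcript changed least among these 3. Its level was 106 RPKM in 93-11 chilled and 105 RPKM in Nipponbare chilled, against 137 RPKM in 93-11 untreated and 155 RPKM in Nipponbare untreated. Both chilled libraries lay below both untreated ones, yet the fitted change of -0.46 ± 0.22 did not pass the test (limma adjusted p = 0.147), and 35.5 percent of all genes tested had a lower fitted change. Its direction also depended on the scaling: the response in 93-11 was -0.37 with TMM factors and 0.22 when the libraries were scaled to ACT1, EF1A and GAPC, of which ACT1 itself fell in this fit (-1.27, adjusted p = 0.00788).

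Ratios of genes inside 1 library do not depend on any scaling between libraries, and these primary wall genes differed there too. Per length, CESA3 stood at 0.495 of CESA1 in 93-11 chilled and 0.824 in Nipponbare chilled, against 1.44 in 93-11 untreated and 1.55 in Nipponbare untreated. CESA8 stood at 0.493 of CESA1 in 93-11 chilled and 0.533 in Nipponbare chilled, against 1.07 and 1.006 in the untreated libraries of 93-11 and Nipponbare. CESA1 was thus the most abundant CESA transcript in both chilled pools and CESA3 in both untreated pools. CESA1 supplied 33.2 percent of the summed CESA RPKM in 93-11 chilled and 27.6 percent in Nipponbare chilled, against 21.4 percent in 93-11 untreated and 19.2 percent in Nipponbare untreated.

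The other 3 primary wall genes were less abundant, and none of them passed the test. CESA2 was the only member above its untreated level in both cultivars: 16.5 RPKM in 93-11 chilled and 9.88 RPKM in Nipponbare chilled, against 5.99 RPKM in 93-11 untreated and 7.43 RPKM in Nipponbare untreated. The fitted change was 0.84 ± 0.32 (limma adjusted p = 0.0833); it passed with voom on reads (0.95, adjusted p = 0.0251) and with scaling to the reference genes (1.26, adjusted p = 0.0445), and under no other of the 10 alternative settings. In 93-11 the chilled library held 2.75 times the untreated level (2.46 to 3.08), and in Nipponbare 1.33 times (1.17 to 1.51). With values as deposited the Nipponbare ratio was within counting error of no change (1.05, 0.926 to 1.19). Relative to CESA5 in the same library, CESA2 stood at 1.05 in 93-11 chilled and 0.997 in Nipponbare chilled, against 0.508 in 93-11 untreated and 0.593 in Nipponbare untreated.

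CESA5 had 15.7 RPKM in 93-11 chilled and 9.91 RPKM in Nipponbare chilled, against 11.8 RPKM in 93-11 untreated and 12.6 RPKM in Nipponbare untreated. CESA6 had 33.6 RPKM in 93-11 chilled and 25.5 RPKM in Nipponbare chilled, against 32.5 RPKM in 93-11 untreated and 32.4 RPKM in Nipponbare untreated. For both genes the chilled and untreated libraries overlapped. The fitted changes were 0.033 ± 0.28 for CESA5 (limma adjusted p = 0.930) and -0.14 ± 0.23 for CESA6 (adjusted p = 0.630). CESA1, CESA3 and CESA8 together made up 76.2 percent of primary wall CESA RPKM in 93-11 chilled and 84.5 percent in Nipponbare chilled, against 90.6 percent in 93-11 untreated and 91.3 percent in Nipponbare untreated.

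**Figure D2:**
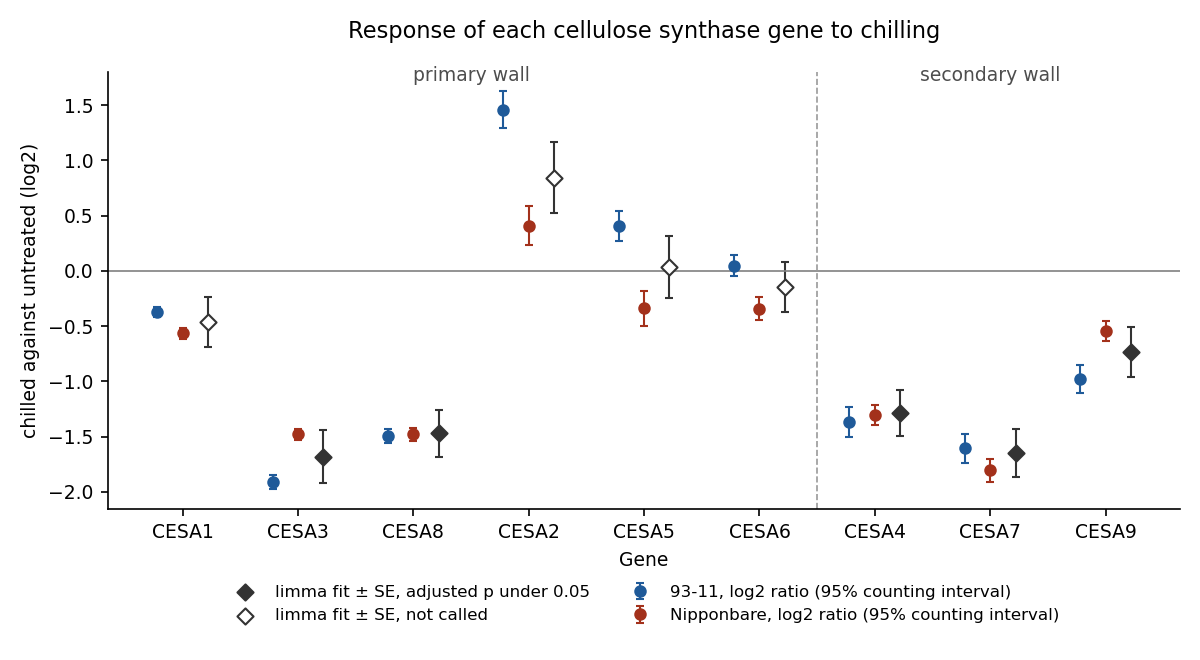
Change with chilling (log2, chilled against untreated) of each CESA gene. Circles are log2 ratios within 93-11 and within Nipponbare with 95% counting intervals, and diamonds are limma estimates with SE, filled where the adjusted p is under 0.05; CESA3, CESA8, CESA4, CESA7 and CESA9 have filled diamonds and CESA2 lies above 0 in both cultivars.

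The secondary wall genes fell as a group of 3, but by different amounts. CESA7 had 13.6 RPKM in 93-11 chilled and 22.0 RPKM in Nipponbare chilled, against 41.5 RPKM in 93-11 untreated and 76.6 RPKM in Nipponbare untreated. Each chilled library lay below both untreated ones, and the fitted change was -1.65 ± 0.21 (limma adjusted p = 0.00422). The chilled level was 0.329 of the untreated one in 93-11 (0.2996 to 0.3596) and 0.287 in Nipponbare (0.267 to 0.308).

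CESA4 had 13.8 RPKM in 93-11 chilled and 28.8 RPKM in Nipponbare chilled, against 35.5 RPKM in 93-11 untreated and 71.1 RPKM in Nipponbare untreated. The chilled libraries were again the 2 lowest, and the fitted change was -1.29 ± 0.21 (limma adjusted p = 0.00776). Without the cultivar term in the fit CESA4 did not pass (adjusted p = 0.131). The chilled level was 0.389 of the untreated one in 93-11 (0.354 to 0.426) and 0.405 in Nipponbare (0.380 to 0.433), and the 2 log2 responses differed by -0.060 (-0.22 to 0.10), or by 0.20 (0.041 to 0.37) with scaling to the reference genes. Leaving out 1 library moved the fitted change to -0.78 without 93-11 chilled, -0.80 without Nipponbare untreated, -1.78 without 93-11 untreated and -1.79 without Nipponbare chilled, and it passed in none of these fits.

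CESA9 changed least of the 3. It had 15.9 RPKM in 93-11 chilled and 37.3 RPKM in Nipponbare chilled, against 31.3 RPKM in 93-11 untreated and 54.3 RPKM in Nipponbare untreated. Here the conditions overlapped, since Nipponbare chilled lay above 93-11 untreated. The fitted change of -0.73 ± 0.23 was just under the threshold (limma adjusted p = 0.0477), and it missed the threshold under 6 of 10 alternative settings, with adjusted p up to 0.339. Leaving out 1 library moved it to -0.14 without 93-11 chilled, -0.34 without Nipponbare untreated, -1.12 without 93-11 untreated and -1.32 without Nipponbare chilled, with adjusted p between 0.139 and 0.824. The chilled level was 0.509 of the untreated one in 93-11 (0.466 to 0.554) and 0.686 in Nipponbare (0.646 to 0.729).

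Within the libraries, the 3 secondary wall transcripts did not keep the same proportions. CESA9 stood at 1.17 times CESA7 in 93-11 chilled and 1.70 times in Nipponbare chilled, against 0.754 in 93-11 untreated and 0.709 in Nipponbare untreated. Against CESA4 it stood at 1.15 in 93-11 chilled and 1.29 in Nipponbare chilled, and at 0.882 and 0.764 in the untreated libraries of 93-11 and Nipponbare. None of these intervals held 1. CESA7 stood at 1.17 times CESA4 in 93-11 untreated (1.105 to 1.239) and 1.08 times in Nipponbare untreated (1.03 to 1.13). The leading secondary wall transcript was thus CESA9 in both chilled pools and CESA7 in both untreated pools. CESA4 kept a steadier share of secondary wall RPKM, 31.8 percent in 93-11 chilled and 32.7 percent in Nipponbare chilled, against 32.8 percent in 93-11 untreated and 35.2 percent in Nipponbare untreated.

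**Figure D3:**
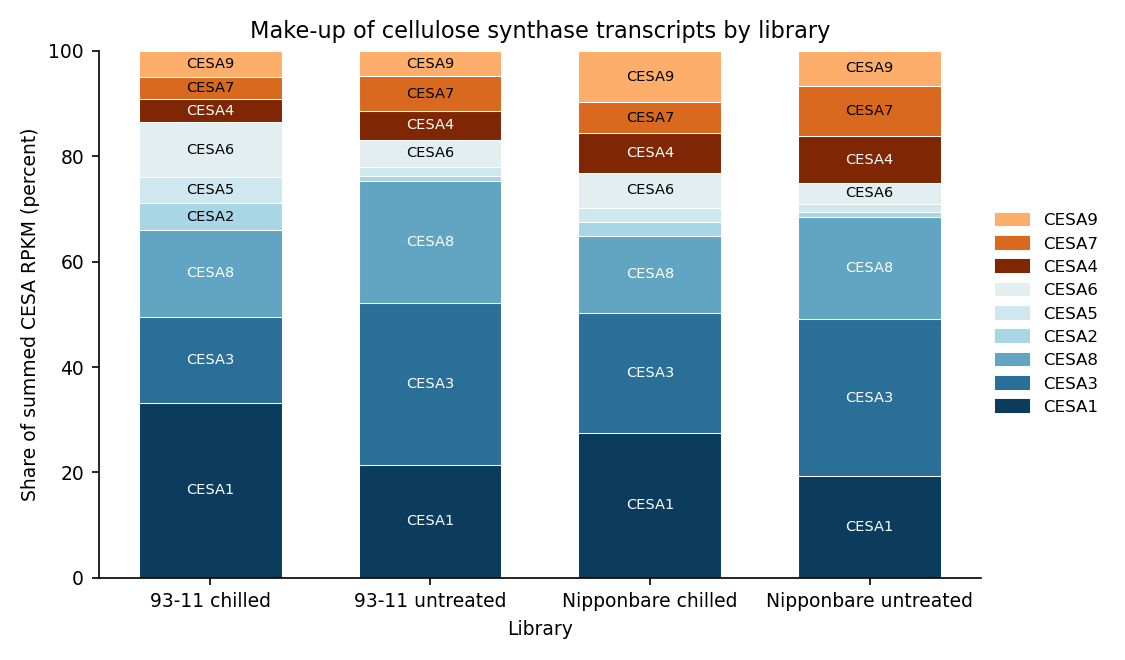
Share of the summed CESA RPKM (percent) taken by each gene in each of the 4 libraries, 1 bar per library, with primary wall genes in blue at the bottom and secondary wall genes in orange at the top. The orange part is 13.5 percent in 93-11 chilled, 16.9 percent in 93-11 untreated, 23.2 percent in Nipponbare chilled and 25.1 percent in Nipponbare untreated.

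The secondary wall share of the family was lower in the chilled library of each cultivar, and lower in 93-11 than in Nipponbare whatever the condition. It was 13.5 percent of CESA RPKM in 93-11 chilled against 16.9 percent in 93-11 untreated, and 23.2 percent in Nipponbare chilled against 25.1 percent in Nipponbare untreated. Counted in reads, the shares were 11.97 percent (Clopper-Pearson 95% interval 11.5 to 12.5) in 93-11 chilled, 15.0 percent (14.7 to 15.3) in 93-11 untreated, 20.8 percent (20.2 to 21.4) in Nipponbare chilled and 22.5 percent (22.1 to 22.9) in Nipponbare untreated. The intervals of the 4 libraries do not overlap, but with 1 library a group there is no measure of how far replicate pools would differ. In Nipponbare the direction also rested on single genes: the RPKM share was 32.0 percent chilled against 31.0 percent untreated without CESA1, and 18.4 percent chilled against 17.2 percent untreated without CESA7.

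The full order of levels shows where neighbours can be told apart by counting error. In both chilled libraries it began CESA1, CESA3, CESA8. In 93-11 chilled there followed CESA6, CESA2, CESA9, CESA5, CESA4 and CESA7, and in Nipponbare chilled CESA9, CESA4, CESA6, CESA7, CESA5 and CESA2. In both untreated libraries it began CESA3, CESA8, CESA1, CESA7, CESA4 and ended CESA5, CESA2; CESA6 preceded CESA9 in 93-11 and CESA9 preceded CESA6 in Nipponbare. Neighbours within counting error of each other were CESA3 and CESA8, CESA2 and CESA9, CESA9 and CESA5, and CESA4 and CESA7 in 93-11 chilled, CESA6 and CESA9 in 93-11 untreated, CESA5 and CESA2 in Nipponbare chilled, and CESA8 and CESA1 in Nipponbare untreated.

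The second comparison was between cultivars. Secondary wall CESA RPKM summed in 93-11 to 0.492 of the Nipponbare level among chilled pools and 0.536 among untreated pools, while primary wall RPKM summed to 0.946 and 0.881. In single genes, CESA4 in 93-11 had 0.479 of the Nipponbare level when chilled (0.432 to 0.529) and 0.499 when untreated (0.473 to 0.526). CESA7 had 0.621 (0.559 to 0.689) when chilled and 0.541 (0.515 to 0.569) when untreated, and CESA9 had 0.427 (0.390 to 0.466) and 0.576 (0.544 to 0.609). In each condition each of the 3 was thus lower in 93-11 beyond counting error.

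In the limma fit 0 of the 9 genes passed for the cultivar, where 4.21 percent of all genes were lower and 1.65 percent higher in 93-11. Fitted differences (93-11 minus Nipponbare) were -0.998 ± 0.21 for CESA4 (adjusted p = 0.0643), -0.98 ± 0.23 for CESA9 (adjusted p = 0.0855) and -0.76 ± 0.21 for CESA7 (adjusted p = 0.145). These 3 had unadjusted p under 0.05, as did 17.6 percent of all genes. With voom on reads CESA4 and CESA9 passed (adjusted p = 0.0219 and 0.0286), and with a pseudocount of 0.1 CESA4 passed (adjusted p = 0.0430). The sources used here do not say whether 93-11 reads were mapped to another cultivar's genome, and the part of read loss at sequence differences in the lower 93-11 values was not tested.

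For the primary wall genes, fitted differences lay between -0.50 ± 0.24 for CESA3 and 0.26 ± 0.28 for CESA5, with adjusted p of 0.378 or more in the limma fit. CESA1 in 93-11 was at 1.011 of Nipponbare when chilled (0.973 to 1.05) and 0.886 when untreated (0.861 to 0.911). CESA3 was at 0.608 when chilled (0.579 to 0.638), about as low as the secondary wall gene CESA7, and 0.819 when untreated (0.801 to 0.838). CESA8 was at 0.936 when chilled and 0.946 when untreated. CESA2, CESA5 and CESA6 were higher in 93-11 among chilled pools, at 1.67, 1.58 and 1.32 times Nipponbare, while among untreated pools CESA2 was at 0.806 and CESA5 and CESA6 were within counting error of Nipponbare. By counting interval with TMM factors, 5 of the 9 genes were lower and 3 higher in 93-11 when chilled, beside 31.6 and 29.9 percent of all genes. When untreated, 7 were lower and 0 higher, beside 26.1 and 28.2 percent of all genes. These counts depended on the scaling. When chilled, CESA1 was higher in 93-11 with upper quartile scaling (1.06) and with scaling to the reference genes (1.225). CESA8 when chilled was within counting error with the first (0.984) and higher with the second (1.13). When untreated, CESA8 was within counting error with upper quartile scaling (0.982). With values as deposited CESA5 (0.868) and CESA6 (0.926) were lower when untreated.

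**Figure D4:**
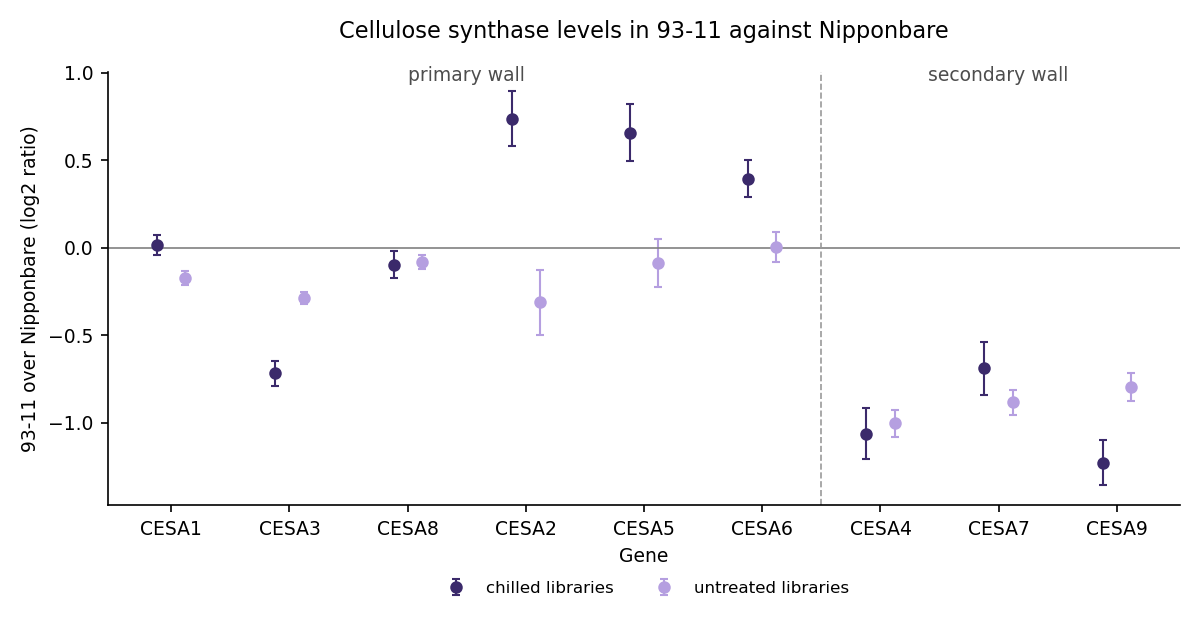
Level in 93-11 over Nipponbare (log2 ratio) of each CESA gene in the chilled and in the untreated libraries, 1 library a group, with 95% counting intervals. The 3 secondary wall genes lie below 0 in both conditions, between -1.23 and -0.69, and CESA2, CESA5 and CESA6 lie above 0 in the chilled libraries.

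The third comparison asked whether the 2 cultivars responded alike; with 1 library a group it has no test, and it compares libraries. In 93-11, 6 of the 9 genes were lower in the chilled library beyond counting error and 2 higher, beside 40.5 and 38 percent of all genes. In Nipponbare 8 were lower and 1 higher, beside 40.8 and 39.1 percent. Beyond 2-fold, CESA3, CESA4, CESA7 and CESA8 were lower in both cultivars, so 4 of 9 in each, beside 16.8 percent of all genes in 93-11 and 17.5 percent in Nipponbare. Beyond 2-fold higher was CESA2 in 93-11, 1 of 9 beside 19.6 percent of all genes, and 0 of 9 in Nipponbare beside 19.2 percent.

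The difference of log2 responses (93-11 minus Nipponbare) was above 0 beyond counting error for CESA2 (1.05, interval 0.81 to 1.29), CESA5 (0.75), CESA6 (0.39), CESA7 (0.20) and CESA1 (0.19). It was below 0 for CESA9 (-0.43, interval -0.58 to -0.28) and CESA3 (-0.43, interval -0.51 to -0.35). Such differences were common: 22.2 percent of all genes lay above 0 and 24.5 percent below. With TMM factors, CESA4 and CESA8 were the 2 members whose interval held 0. The highest level of CESA2 and the lowest level of CESA3 were both in 93-11 chilled.

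Genes that act beside the CESA proteins were read from lists of loci, in which names are printed only where the RefSeq gene table did not contradict them. Over all genes tested, 22.9 percent fell and 23.6 percent rose in the limma fit, the shares to set beside the list counts below. Of 8 tested genes for cellulose assembly, 2 rose and 3 fell, with a median of -0.30 (log2) that turned to 0.065 with scaling to the reference genes. BC1, a COBRA-like protein of the wall whose loss makes rice culms brittle, had 1.42 RPKM in 93-11 chilled and 2.33 RPKM in Nipponbare chilled, against 9.56 RPKM in 93-11 untreated and 18.5 RPKM in Nipponbare untreated (-2.34 ± 0.28, limma adjusted p = 0.00346). GLU1, a membrane-bound endoglucanase that acts on growing cellulose, had 9.31 and 9.34 RPKM in the chilled pools of 93-11 and Nipponbare, against 3.99 and 3.91 RPKM untreated (1.06 ± 0.26, adjusted p = 0.0248). GLU1 passed under 9 of 10 alternative settings, with adjusted p up to 0.0521. The cultivar difference of BC1 did not pass (-0.67 ± 0.28, adjusted p = 0.310).

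The 7 tested loci listed as secondary wall regulators had a median of -0.695 (log2), or -0.323 with scaling to the reference genes. Both medians include 2 loci that had passed the filter through the untreated libraries alone. Of the other 5 none passed the limma test in either direction, though 2 rose with scaling to the reference genes. Another of these 5, LOC_Os04g50770, changed by -0.98 ± 0.32 (limma adjusted p = 0.0563) and passed under 5 of 10 alternative settings. Summed over all 8 listed regulator loci, tested or not, the level was 93.8 and 80.9 RPKM in the chilled pools of 93-11 and Nipponbare. It was 79.4 and 97.3 RPKM in the untreated pools. KNAT7, a homeodomain factor and the one name here that could be checked, had 36.1 and 45.0 RPKM chilled against 24.1 and 37.5 RPKM untreated (0.41 ± 0.22, limma adjusted p = 0.178). Other secondary wall polymers gave mixed counts. Of 7 xylan loci 2 rose and 2 fell, leaving aside IRX9, which passed the filter through the untreated libraries alone. IRX9, a glycosyltransferase of the xylan backbone in Arabidopsis, had 0.719 and 0.348 RPKM in the chilled pools of 93-11 and Nipponbare against 5.33 and 6.98 RPKM untreated. IRX14, its partner there, had 124 and 215 RPKM chilled against 72.5 and 130 RPKM untreated (0.74 ± 0.22, adjusted p = 0.0427, not passing under 4 of 10 alternative settings).

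Of 14 tested lignin loci 8 fell and 1 rose, beside 22.9 and 23.6 percent of all genes tested. The median of these lignin loci was -1.34. COMT1, an O-methyltransferase of lignin monomers, had 82.7 RPKM in 93-11 chilled and 128 RPKM in Nipponbare chilled, against 628 RPKM in 93-11 untreated and 748 RPKM in Nipponbare untreated (-2.72 ± 0.26, limma adjusted p = 0.00201). The ligase 4CL2 changed by -2.33 ± 0.26 (adjusted p = 0.00286). HCT2, a hydroxycinnamoyl transferase, was the one that rose, with 235 and 216 RPKM in the chilled pools of 93-11 and Nipponbare against 40.8 and 71.4 RPKM untreated (2.04 ± 0.30, adjusted p = 0.00561).

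Relatives of the CESA genes, the cellulose synthase-like families, were read the same way. Of 3 tested synthases of mixed-linkage glucan, a polymer of grass primary walls, CSLF6 changed by -1.12 ± 0.24 and CSLH1 by -1.92 ± 0.37 (limma adjusted p = 0.0173 and 0.0120). CSLF6 did not pass with scaling to the reference genes (adjusted p = 0.0535), and CSLH1 passed under 9 of 10 alternative settings (adjusted p up to 0.0617). CSLF8 passed the filter through the untreated libraries alone, with 0.734 and 0.0547 RPKM in the chilled pools of 93-11 and Nipponbare against 7.68 and 5.91 RPKM untreated. CSLF6, the main synthase of this polymer, had 50.9 RPKM in 93-11 chilled and 65.1 RPKM in Nipponbare chilled, against 136 RPKM in 93-11 untreated and 118 RPKM in Nipponbare untreated. CSLD2, the only one of 5 CSLD genes that could be tested, rose by 1.47 ± 0.36 (adjusted p = 0.0242), with 19.9 and 10.3 RPKM in the chilled pools of 93-11 and Nipponbare against 4.02 and 5.16 RPKM untreated; it did not pass with the values as deposited or without the cultivar term. Of 13 tested CSLA and CSLC loci, families of mannan and xyloglucan synthases, 2 rose and 3 fell, leaving aside 3 that passed the filter through the chilled libraries alone. CSLA1 changed by -2.44 ± 0.27 (adjusted p = 0.00290). CSLA4, one of the 3 left aside, had 4.78 and 4.196 RPKM in the chilled pools of 93-11 and Nipponbare against 0.674 and 0.287 RPKM untreated. The 2 further loci listed as CESA genes reached at most 1.38 RPKM and were not tested.

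The last lists held genes of wall loosening and of substrate supply. Of 7 tested expansins, proteins that let primary walls extend, 5 fell, leaving aside 1 that passed the filter through the untreated libraries alone. With that 1 counted, 6 fell, and 4 with scaling to the reference genes. EXPA5 went the other way and did not pass (1.35 ± 0.575, limma adjusted p = 0.111). EXPA2 had 1.06 and 1.63 RPKM in the chilled pools of 93-11 and Nipponbare, against 22.1 and 26.7 RPKM untreated (-3.44 ± 0.26, limma adjusted p = 0.00126), and EXPB3 had 12.7 and 9.61 RPKM against 75.0 and 71.5 RPKM (-2.62 ± 0.22, adjusted p = 0.00153). Of 4 tested loci for UDP-glucose, the substrate of CESA proteins, 1 rose and 1 fell. SUS4, a sucrose synthase, had 73.8 and 42.6 RPKM in the chilled pools of 93-11 and Nipponbare against 9.94 and 8.25 RPKM untreated (2.503 ± 0.24, adjusted p = 0.00208). SUS2, another sucrose synthase, changed by -0.68 ± 0.21 (adjusted p = 0.0460) and passed under 4 of 10 alternative settings.

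**Figure D5:**
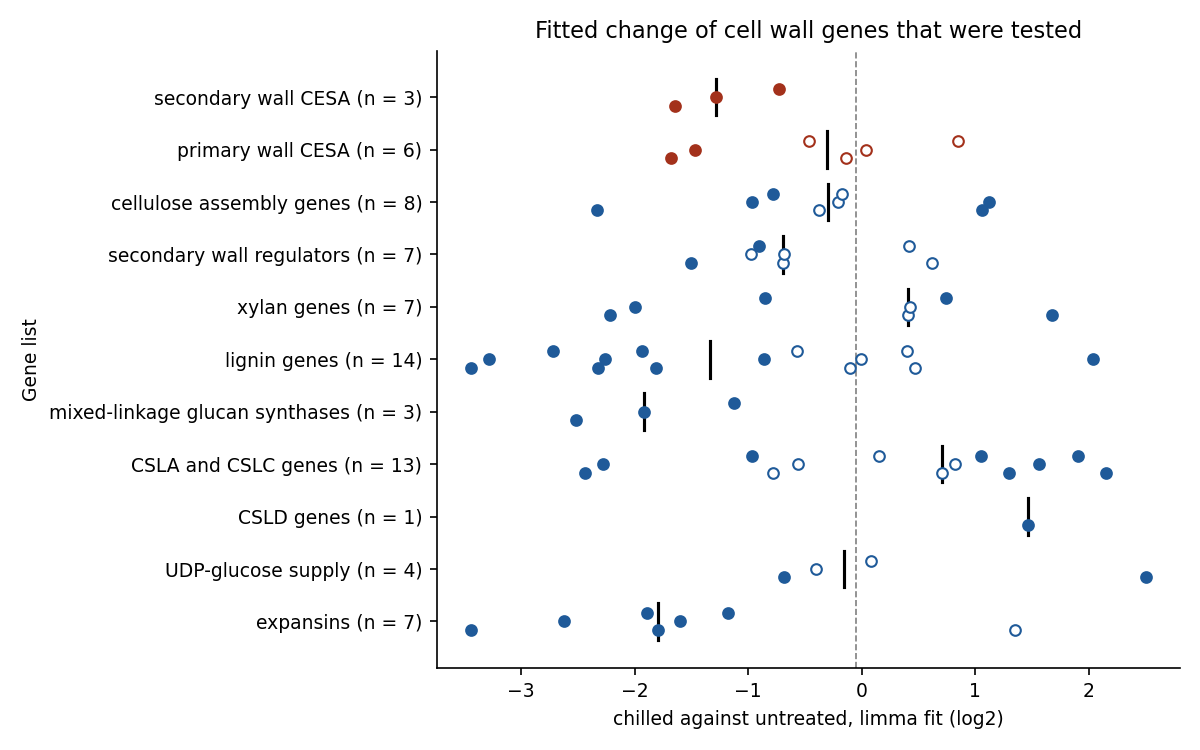
Fitted change with chilling (log2, limma) of each tested gene in the CESA groups (red) and the other cell wall lists (blue), 1 point per gene, filled where the adjusted p is under 0.05. Vertical bars are list medians and the dashed line is the median of all genes tested, -0.055. Farthest to its left lie the medians of the mixed-linkage glucan synthases (-1.92), the expansins (-1.80), the lignin genes (-1.34) and the secondary wall CESA genes (-1.29). Of the filled points, 2 regulators, 1 xylan gene, 1 mixed-linkage glucan synthase, 3 CSLA or CSLC genes and 1 expansin passed the filter through 1 condition alone and had to differ. The list medians include these genes. That of the mixed-linkage glucan synthases includes CSLF8 (-2.52), and that of the expansins is the value of such a gene, EXPB6 (-1.80).

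Likeness of pattern was measured as the Euclidean distance between profiles over the 4 libraries, on centred log2(RPKM + 1) values. Of 66 genes in the other wall lists, those nearest to the mean secondary wall CESA profile were CSLA3, a mannan synthase-like gene (distance 0.354), EXPB2, an expansin (0.377), and a locus whose name could not be checked (0.584). CSLA3 had 2.07 RPKM in 93-11 chilled and 3.70 RPKM in Nipponbare chilled, against 4.69 RPKM in 93-11 untreated and 8.73 RPKM in Nipponbare untreated, so both conditions and both cultivars were ordered as in CESA4. CESA4 itself lay 0.110 from that mean, CESA7 0.474 and CESA9 0.522. Of all 19263 genes with a mean of at least 1 RPKM the nearest was LOC_Os12g29740 (0.0445), a low gene listed at 0 in 93-11 chilled and at 0.917 RPKM in Nipponbare chilled, against 1.47 RPKM in 93-11 untreated and 3.36 RPKM in Nipponbare untreated.

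The primary wall mean was a poorer summary of its members. CESA1 lay 0.0965 from it, CESA6 0.391, CESA5 0.610, CESA8 1.007, CESA3 1.35 and CESA2 1.38, so CESA3 and CESA2 were the farthest. The nearest named gene of the wall lists was 4CL1, a ligase of the lignin pathway (0.122), which had 1.23 RPKM in 93-11 chilled and 1.00 RPKM in Nipponbare chilled, against 2.10 RPKM in 93-11 untreated and 2.16 RPKM in Nipponbare untreated. The other 2 of the nearest 3 were loci whose names could not be checked (0.119 and 0.272). The nearest of all genes was LOC_Os01g62370 (0.0201).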

How the data were processed

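Per the labels' protocols, mRNA was bound to oligo(dT) beads and sequenced by Illumina HiSeq. The authors deposited 1 RPKM value per gene and library; the submitters' processing notes name TopHat2 2.0.9, HTSeq 0.5.4p3 and Bowtie2 2.0.6 without saying what each did. The sources used here do not give the genome build, annotation or strand use, so reads of antisense or overlapping genes, or shared by similar CESA copies, cannot be told apart.

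Whole reads, gene model lengths and library totals were recovered from the RPKM values for 100.0 percent of the 36941 genes above 0, and sum to 97.7 to 98.1 percent of the totals. With totals shifted by 1 and 2 percent, 1 and 0 of 500 genes could be solved. RPKM values were divided by TMM factors from these reads (0.3 of ratios and 0.05 of intensities trimmed). The test was limma 3.58.1 (R 4.3.3), its variance prior following intensity, fitted to log2(RPKM + 1) with treatment and cultivar as terms. Genes needed 1 RPKM or more in 2 or more libraries. It leaves 1 residual degree of freedom, to which limma adds a prior worth 4.25. P-values were adjusted by Benjamini-Hochberg over all 19466 genes and called under 0.05. Changes on this scale understate those of low genes. The fit was also run on simulated data without cultivar differences, which cannot show how it handles cultivars that respond differently. These p-values reflect the spread among the 4 pools alone, which may be technical.

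Within a cultivar or condition, ratios of scaled reads (0.5 added) carry exact conditional binomial 95% intervals (SciPy 1.17.1), and differences of responses Wald intervals. Neither covers more than counting error, as reads copied by PCR are not separate molecules.

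Members and lists were chosen with earlier results of these data known. All 9 CESA genes are named; of other lists, up to 2 called genes with the highest and lowest change each way, and any a small count refers to. Of the files' identifiers 0 are in RefSeq's gene table (GCF_034140825.1 ASM3414082v1); a name was used where it placed the symbol on the identifier's chromosome, which held for 73 of 109 loci and all 9 CESA genes. The pairing itself is general knowledge. Alternatives were 4 other scalings, a pseudocount of 0.1, 2 other filters, no trend, voom, no second term and leaving out each library. Sequences of the members were not used here.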

Additional observations from a re-analysis of the deposited data

Results flagged for a closer look

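CESA5 had responses of opposite sign in the 2 cultivars. Its chilled level was 1.33 times the untreated one in 93-11 (95% interval 1.21 to 1.46) and 0.790 in Nipponbare (0.706 to 0.883), so the log2 responses differed by 0.747. With the values as deposited the responses were 0.19 in 93-11 and -0.68 in Nipponbare. Scaled to the reference genes they were 1.00 in 93-11 and -0.0070 in Nipponbare.

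CESA6 also had log2 responses of opposite sign, but with TMM factors the one in 93-11 was within counting error of 0. Its chilled level was 1.03 times the untreated one in 93-11, with an interval that held no change (0.9696 to 1.10), and 0.788 in Nipponbare (0.734 to 0.846), a difference of 0.391 in log2 responses. With the values as deposited both responses were below 0, at -0.17 in 93-11 and -0.69 in Nipponbare. The 93-11 response lay above 0 beyond counting error with median-of-ratios (0.093) and upper quartile scaling (0.11). It did so too when scaled to the reference genes (0.64), where the Nipponbare response of -0.011 was within counting error of 0. With 1 library a group, neither difference between the cultivars was tested.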

How the results depend on the processing

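CESA3, CESA7 and CESA8 were lower with adjusted p under 0.05 under all 10 alternatives that kept 4 libraries, and CESA4 under 9. The count-model test listed among the alternatives was not run; voom was run on the recovered reads. With 1 library a group there were no replicates to pair, and libraries are matched only through the second term of the fit, by cultivar or condition. Without that term, 3 CESA genes were lower with chilling and 2742 of all genes, and 0 genes differed between cultivars in either direction. Scaled to the reference genes, 2500 of all genes were lower and 1 CESA gene (CESA2) was higher, as with voom (also 1); the share of chilling calls that were higher was 70.6 percent with that scaling and 39.7 percent with values as deposited, against 50.7 percent with TMM. The median over all genes shifted by 0.35 and -0.22 (log2) under them. CESA1 passed with values as deposited (-0.74, adjusted p = 0.0393). Counts of 93-11 higher genes were 494 with a pseudocount of 0.1, 82 with no filter, 31 with at least 1 RPKM in all 4 libraries and 686 with voom; counts of 93-11 lower genes were 294, 39 and 1255 with the last 3, and of CESA genes 1 with the pseudocount and 2 with voom.

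By counting interval, 4 CESA genes were higher with chilling in 93-11 when scaled to the reference genes and 0 in Nipponbare with values as deposited. Reversed signs were CESA5 with values as deposited (-0.23), and, scaled to the reference genes, CESA6 (0.31), the response of CESA1 in 93-11 (0.22), and the cultivar differences of CESA1 (0.064) and CESA8 (0.055). The causes were not tested.

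Leaving out 1 library drops the second term, and the lone sample is assumed to vary like the others. Chilling counts then ran between 0 and 1771 higher and 0 and 857 lower over all genes, 0 to 2 lower over the CESA genes and 0 to 0 over all genes for the cultivar. The 2 were CESA3 and CESA8 without Nipponbare chilled (adjusted p = 0.0445 and 0.0458). CESA5 ran between -0.27 and 0.34 and CESA6 between -0.34 and 0.048, and CESA5 was -0.0070 without 93-11 untreated. Without 93-11 chilled and without Nipponbare untreated, cultivar differences reversed for CESA1 (0.11 and 0.20; lowest -0.36), CESA3 (0.45 and 0.24; lowest -1.44), CESA7 (0.0090 and 0.12; lowest -1.64) and CESA8 (0.65 and 0.65; lowest -0.83), and without 93-11 chilled for CESA2 (-0.45; highest 0.87). In reads, secondary wall shares were 11.97, 15.0, 20.8 and 22.5 percent in 93-11 chilled, 93-11 untreated, Nipponbare chilled and Nipponbare untreated. In RPKM, leaving out each member in turn, the 4 shares ran from 9.02 to 20.3, 11.1 to 24.4, 14.8 to 32.0 and 17.2 to 35.7 percent.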
